A study of Homo sapiens with 24 samples.

Results

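HK-2 cells kept in hypoxia were compared directly with HK-2 cells treated with transforming growth factor-β1 (TGF-β1) in normoxia, to see which genes separate these stimuli without going through the normoxic controls. HK-2 is an immortalised line of human proximal tubular epithelium, made with papillomavirus E6 and E7 genes. The comparison holds 8 of the 24 RNA-seq libraries of the series, taken by their labels alone: 3 of hypoxia (0.3% oxygen) with solvent and 5 of normoxia with TGF-β1 at 2 ng/mL. All cells had been serum-deprived overnight and were incubated for 24 h. The same comparison was then made in 8 further libraries that also received BAY 60-2770, an activator of soluble guanylate cyclase: 3 of hypoxia with BAY and 5 of normoxia with TGF-β1 and BAY. The labels give the concentration of BAY as 1 mM, a unit that was not checked here. The 5 libraries of normoxia with solvent (DMSO, HCl and bovine serum albumin) serve below only to show where the unstimulated level lies. The labels number the libraries as biological replicates and do not describe separate cultures further, so the tests speak only of the variation among these libraries. The series text assigns hypoxia and TGF-β1 to separate sets of experiments, so stimulus and set of experiments cannot be told apart in any result below.

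Hypoxia acts largely through hypoxia-inducible factors (HIFs), dimers of an oxygen-labile α subunit (HIF1A or EPAS1) and the stable partner ARNT. With oxygen, prolyl hydroxylases of the EGLN family mark the α subunit for destruction through VHL. Without oxygen the dimer binds short hypoxia response elements and switches on genes of glucose uptake, glycolysis, pH control and angiogenesis. TGF-β1 is secreted in a latent form held by LTBP proteins, and once released it signals through TGFBR2 and TGFBR1 to SMAD2 and SMAD3, which enter the nucleus with SMAD4. Its targets include matrix proteins, matrix proteases and their inhibitors, and factors of epithelial-mesenchymal transition (EMT). Both stimuli are studied in proximal tubule cells for their part in loss of epithelial character and in fibrosis.

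The promoters of 3 of the genes that separate the stimuli are printed to show what the searched letters look like in place. They do not stand for the other genes: SEMA5B, GAL3ST1, SULT1B1 and SLC34A1 were high in hypoxia with no match to the hypoxia core in the window searched. CA9 and ADM were far higher in hypoxia and IL7R far higher with TGF-β1, with values below. The 250 bases before the RefSeq start of each gene (GRCh38.p14, plus strand) are printed 5′ to 3′. Capitals mark every match to the hypoxia response core ACGTG or GCGTG in CA9 and ADM, and to the AP-1 element TGANTCA or the SMAD element CAGACA in IL7R, on either strand. The CA9 region is chr9:35673678-35673927, that of ADM chr11:10304823-10305072 and that of IL7R chr5:35856641-35856890.
CA9: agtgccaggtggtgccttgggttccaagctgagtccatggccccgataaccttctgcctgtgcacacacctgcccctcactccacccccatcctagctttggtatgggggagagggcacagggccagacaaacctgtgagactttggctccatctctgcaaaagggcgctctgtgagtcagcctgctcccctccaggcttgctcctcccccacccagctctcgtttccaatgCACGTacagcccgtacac
ADM: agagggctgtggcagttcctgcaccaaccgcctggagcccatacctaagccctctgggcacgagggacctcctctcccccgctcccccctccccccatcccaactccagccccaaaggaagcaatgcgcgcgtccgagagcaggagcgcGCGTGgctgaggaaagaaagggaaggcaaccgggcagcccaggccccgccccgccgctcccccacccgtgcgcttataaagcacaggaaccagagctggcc
IL7R: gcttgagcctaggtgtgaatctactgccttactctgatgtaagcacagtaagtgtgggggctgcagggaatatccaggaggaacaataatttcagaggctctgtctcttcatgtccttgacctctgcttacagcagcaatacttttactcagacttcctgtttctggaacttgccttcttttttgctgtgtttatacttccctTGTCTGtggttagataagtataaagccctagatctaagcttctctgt
The match in CA9 begins at position -18 from the start and lies on the reverse strand. That in ADM begins at -101, on the forward strand. The match in IL7R begins at -47 and is CAGACA read on the reverse strand. CA9 also holds TGANTCA at -77 and CAGACA at -126, which are not capitalised, so the promoter with the hypoxia core is not free of the other letters. Across the 27305 promoters of the RefSeq table, each from 250 bases before to 50 after the first listed start, 48.4% held ACGTG or GCGTG, 7.76% held TGANTCA and 16.8% held CAGACA. Of 38 HIF targets, 32 had a promoter in the table and 26 of these (81.2%) held a hypoxia core. For ACGTG alone, which is also part of the E-box CACGTG, the shares were 56.2% of HIF targets and 21.6% of all promoters. Of 26 TGF-β targets, 19 had a promoter there, of which 8 (42.1%) held a hypoxia core, 3 (15.8%) held TGANTCA and 1 (5.26%) held CAGACA. Among the 24 genes with the largest differences, a hypoxia core was in 4 of 8 promoters (50%) on the hypoxia side and in 5 of 7 (71.4%) on the TGF-β1 side. These matches are descriptions of letters and not of bound sites, and both lists were drawn up from knowledge of the pathways with earlier results of these data known.

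The 8 libraries held 86041861 to 101311106 estimated counts each. Levels are CPM (reads per 1000000 counted) scaled by the trimmed mean of M values (TMM), and every difference is the log2 fold change of hypoxia minus TGF-β1, so that negative values mean higher with TGF-β1. Calls rest on edgeR's quasi-likelihood test with Benjamini-Hochberg adjustment over 20435 genes and a threshold of 0.05. Within their group the TGF-β1 libraries fell into 2 subsets along the first principal component of within-group deviations, which held 13.4% of that variance: replicates 1 and 2, and replicates 3, 4 and 5. Those with TGF-β1 and BAY split by the same numbers and the controls into replicates 1, 2 and 5 and replicates 3 and 4, and the labels do not say what the subsets are. The count of called genes was 14670 with TGF-β1 replicates 1 and 2 only and 14956 with replicates 3, 4 and 5 only. Transcripts encoded by the mitochondrial genome took 3.65% ± 0.191 (SD, n = 3) of counts in hypoxia, 5.2% ± 0.216 (SD, n = 5) with TGF-β1 and 7.29% ± 0.174 (SD, n = 5) in the controls. As a check of cell type, the epithelial keratins KRT8 (359 to 877 CPM over all 24 libraries) and KRT18 (179 to 383), the renal transcription factor PAX8 (205 to 669), kidney cadherin CDH6 (618 to 1550) and the brush border enzyme GGT1 (53.9 to 304) were present throughout. The mature proximal tubule markers ANPEP, LRP2, CUBN and AQP1 did not pass 2.28 CPM in any library.

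The stimuli separated most of the transcriptome. Of the 20435 genes tested, 14749 (72.2%) were called, 7432 (36.4%) higher in hypoxia and 7317 (35.8%) higher with TGF-β1. At 2-fold or more the counts were 3175 (15.5%) and 2553 (12.5%), together 28.0% of genes, and 3.44% differed at least 8-fold. The median difference of all genes was 0.0197, and the median of its absolute value 0.598. In 7467 genes (36.5%) all hypoxia libraries lay above all TGF-β1 libraries, and in 6983 (34.2%) all lay below. With this background, a list of genes is of note only by how far its counts lie from an even split of about 36% each way. In bulk libraries, more cells expressing a gene and more of its RNA per cell cannot be told apart.

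The marker genes given for the stimuli differed by more than any spread between libraries. They were given beforehand with earlier results of these data known, so their tests describe the separation and are no independent support for it. CA9, on chromosome 9 (35673856-35681159), encodes a membrane carbonic anhydrase that buffers pH. It stood at 8.79, 9.22 and 9.04 CPM in hypoxia and at 0.366, 0.386, 0.0689, 0.116 and 0.159 with TGF-β1, a difference of 5.32 (SE 0.423, edgeR adjusted p = 4.177e-06). The TGF-β1 libraries split by subset, and with replicates 3, 4 and 5 only the difference was 6.26. CA9 shares exon sequence with ARHGEF39, at 7.7 CPM on average, so part of its reads may belong to that gene. NDRG1, a stress-induced cytoplasmic protein and long-used hypoxia marker, stood at 8310, 8080 and 8950 CPM against 278, 283, 154, 169 and 155 (5.33, SE 0.273, adjusted p = 6.634e-07). MMP1, interstitial collagenase on chromosome 11 (102789920-102798160), stood at 7.37, 7.91 and 5.92 CPM in hypoxia and at 722, 766, 604, 626 and 630 with TGF-β1 (-6.58, SE 0.149, adjusted p = 7.111e-10). IL7R, the interleukin-7 receptor α chain on chromosome 5 (35852695-35879603), stood at 0.183, 0.149 and 0.199 CPM in hypoxia against 52.2, 55.3, 53.5, 54.3 and 58.9 (-8.28, SE 0.0888, adjusted p = 8.723e-12). For each of the 4 genes the groups lay far apart, with the controls (0.0718, 243, 4.03 and 0.373 CPM in the same order) near the lower of the stimuli.

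**Figure D1:**
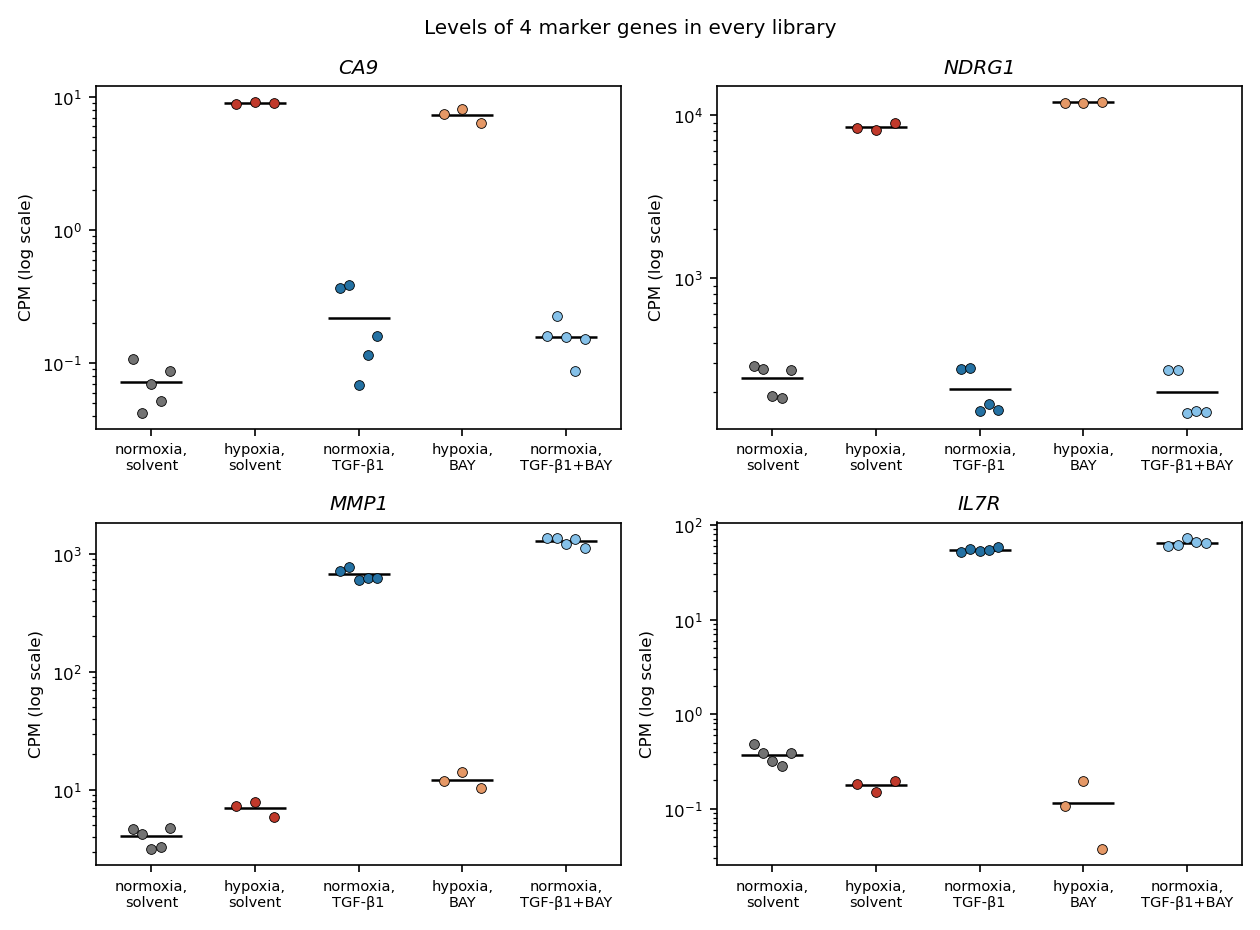
CPM (log scale) of CA9, NDRG1, MMP1 and IL7R in each library of 5 groups; points are libraries and bars are group means. CA9 and NDRG1 are high in both hypoxia groups and MMP1 and IL7R in both TGF-β1 groups, and the 2 NDRG1 points of TGF-β1 at 278 and 283 lie apart from the 3 at 154 to 169.

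The 12 genes with the largest difference towards hypoxia, among those of at least 5 CPM whose groups did not overlap, included KISS1R, SEMA5B, GAL3ST1, DOC2A, SULT1B1, NDRG1, CA9, ARFGEF3, GOLT1A, ADM and SLC34A1. KISS1R, the kisspeptin receptor, stood at 6.93, 6.96 and 7.02 CPM in hypoxia and between 0 and 0.0318 with TGF-β1, that is 0 to 3 counts a library (8.90, SE 0.285). ADM, the vasodilator peptide adrenomedullin, stood at 116, 112 and 148 CPM against 5.36, 5.36, 2.63, 2.7 and 2.97 (5.02, SE 0.284). SEMA5B, a semaphorin, stood at 47.5, 47.4 and 41.5 CPM against 0.325 to 1.08. The controls did not always lie with the lower stimulus: on the log scale their level lay closer to the TGF-β1 level for 8 of the 12 and closer to the hypoxia level for 4, among them SULT1B1, GOLT1A and SLC34A1. SLC34A1, the sodium-phosphate cotransporter of the proximal tubule, stood at 6.43, 6.29 and 5.95 CPM in hypoxia, 0.125 to 0.323 with TGF-β1 and 2.66 ± 0.252 (SD, n = 5) in the controls. SULT1B1, a sulfotransferase, stood at 6.4 to 7.99 CPM in hypoxia, 0.116 to 0.287 with TGF-β1 and 4.35 in the controls. DOC2A overlaps exons of INO80E (60.4 CPM), so its level may hold reads of that gene.

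The 12 genes with the largest difference towards TGF-β1, by the same rule, included MMP13, IL11, MMP1, MMP10, PLPP4, CGB5, IL7R, LEFTY2, FLOT1 and CGB8. They hold 3 secreted metalloproteinases, the cytokine IL11 and LEFTY2, an inhibitor of nodal and activin signals. LEFTY2 stood at 0.0102, 0.032 and 0.0351 CPM in hypoxia and at 33.9, 33.1, 30.5, 29.2 and 28.4 with TGF-β1 (-10.2, SE 0.181). IL11, a cytokine of the IL-6 family known for its part in fibrosis, stood at 3.72, 3.75 and 3.64 CPM against 336, 322, 299, 289 and 305 (-6.40, SE 0.0776). The control level lay closer to that of hypoxia for 11 of these 12, and for all 12 without control replicate 2, since FLOT1, the exception, had 4.32 CPM (407 counts) in that library and 0 counts in the other 4. MMP13 (collagenase-3) differed between the TGF-β1 subsets, with 188 and 192 CPM in replicates 1 and 2 and 335, 341 and 357 in replicates 3, 4 and 5, all far above the 3.69 to 4.1 of hypoxia. CGB8 had 0 counts in all hypoxia libraries and 22.3 to 27.9 CPM with TGF-β1, at least 2330-fold higher against a floor of 3 counts over the group. CGB5 and CGB8 are near-identical chorionic gonadotropin genes between which reads can be split, so their separate levels are uncertain. FLOT1 was also at 0 counts in hypoxia, which gives at least 1590-fold, but it lies in the major histocompatibility region, where alternate haplotypes in an annotation can share its reads, and its TGF-β1 values ran from 7.48 to 28.4 CPM.

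**Figure D2:**
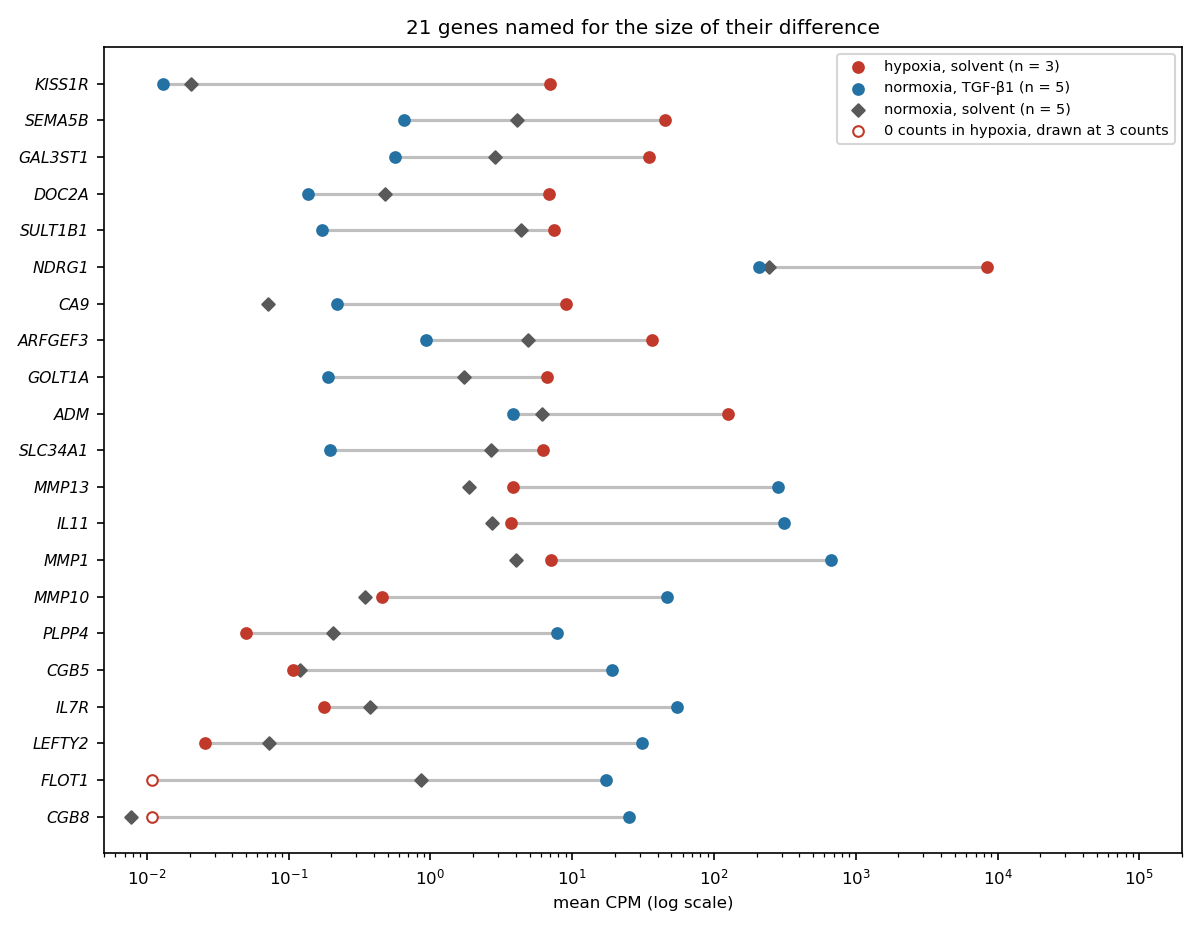
Mean CPM (log scale) in hypoxia, with TGF-β1 and in normoxic solvent controls of 21 of the genes with the largest differences; lines join the 2 stimuli and open circles stand for 0 counts, drawn at 3 counts (0.0108 CPM). In the lower 10 genes the control diamond lies closer to the hypoxia circle for all but FLOT1, whose control mean comes from 1 library (4.32 CPM), while in the upper 11 it lies closer to TGF-β1 for 8.

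Among the HIF machinery, the α subunits separated in opposite directions. EPAS1 (HIF-2α) stood at 413 ± 17.2 CPM (SD, n = 3) in hypoxia and 148 ± 34.5 (SD, n = 5) with TGF-β1, a difference of 1.47. HIF1A stood at 315, 306 and 292 CPM against 628, 641, 550, 575 and 563 (-0.97, SE 0.0644, adjusted p = 3.131e-07), with the controls at 456. These are transcript levels, while HIF activity is set mainly by protein stability. The hydroxylases EGLN1 (198 against 62.3 CPM) and EGLN3 (112, 109 and 119 against 20.9, 21.1, 12.5, 12.3 and 12.1), themselves HIF targets, were higher in hypoxia, as was CITED2, which competes with HIF for its coactivator (346 against 48.3 CPM, controls 277). Of the 10 tested subunits and sensors, 6 were higher in hypoxia and 2 with TGF-β1, the latter being HIF1A and EGLN2. VHL was near equal at 72 and 70 CPM (0.03, adjusted p = 0.586).

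Of 38 HIF targets, 32 were higher in hypoxia against 36.4% of all genes, 3 were higher with TGF-β1 and 3 were not called, with a median of 1.69. VEGFA, the main angiogenic growth factor, stood at 251, 232 and 257 CPM against 44.6, 42.5, 29.6, 28.4 and 27.6 (2.82, SE 0.186). BNIP3, a mitophagy receptor, and HILPDA, a lipid droplet protein, showed differences of 3.27 and 3.25. CXCR4, a chemokine receptor, had the largest difference of the list (6.28) at a low level, 1.92, 1.73 and 2.36 CPM against 0.0104 to 0.0574. The list was not uniform. SLC2A1, the glucose transporter GLUT1, stood at 1390, 1300 and 1500 CPM against 473, 480, 391, 396 and 397, a difference of 1.69 in which both stimuli lay above the 172 CPM of the controls. PDK1, which holds pyruvate back from the mitochondria, stood at 147, 145 and 150 CPM against 50.2, 50.5, 41.7, 43.6 and 42.7 (1.67). The members BHLHE41 (70.7 against 107 CPM), P4HA2 (197 against 260) and LOX, were higher with TGF-β1, with the controls below both stimuli at 29.5, 54.1 and 11.2 CPM. ANGPTL4 was not called and was far above its control level in both, at 7.79 and 11.25 CPM against 0.198. BHLHE40, a circadian repressor that is on both the HIF and the TGF-β lists, stood at 610, 594 and 640 CPM against 466, 473, 285, 292 and 285, and its difference of 0.754 ran from 0.344 against replicates 1 and 2 to 1.09 against replicates 3, 4 and 5.

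Glycolysis followed the HIF targets. Of 16 tested enzymes and transporters 12 were higher in hypoxia and 3 with TGF-β1 (median 0.804). HK2, the inducible hexokinase, stood at 194, 181 and 200 CPM against 43.7, 45.2, 33.3, 34.2 and 33.4 (2.32, SE 0.121), with the controls at 63.2. ENO2 (816 against 172 CPM) and GPI (788 against 255) were at control level with TGF-β1, whereas PGK1, ALDOA, ENO1 and GAPDH were above it with both stimuli and higher in hypoxia (1.33, 1.09, 1.06 and 0.86). The last enzyme that makes pyruvate, PKM, was higher with TGF-β1, at 3465 against 2438 CPM (-0.52). ALDOC, at under 1 CPM, was as well (-1.30).

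Of 13 mitochondrially encoded messages 12 were higher with TGF-β1 and none in hypoxia, with a median of -1.13. MT-ND6, which alone is encoded on the light strand, stood at 42.7, 43.7 and 35.6 CPM against 192, 178, 204, 204 and 199 (-2.28, SE 0.0736), with the controls at 188. MT-ND5 was the member not called (-0.11). The summed level of the 13 messages was 25100 to 27600 CPM in hypoxia, 42000 to 46900 with TGF-β1 and 51800 to 57300 in the controls. The mitochondrial share of counts given above includes these messages and all other mitochondrially encoded genes, so it is larger and not separate from this list. Of 33 nuclear-encoded subunits 15 were higher with TGF-β1 and 9 in hypoxia, with none past 2-fold and a median of -0.111. NDUFB3 of complex I stood at 18.3, 17.7 and 21.6 CPM against 35.4, 36, 35, 35.4 and 35.5 (-0.90), and COX7C of complex IV at 208, 199 and 225 against 144, 142, 138, 135 and 135 (0.585). In the citric acid cycle 15 of 21 genes were higher with TGF-β1, FH (fumarase) most at 34.2, 32.8 and 35.4 CPM against 74.9, 74.7, 77.3, 80.9 and 79.8 (-1.20). IDH2 and SUCLG2 were the 2 higher in hypoxia (0.784 and 0.60). Leaving the mitochondrially encoded genes out changed the count of all called genes to 14814.

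Ligands of the TGF-β pathway and the proteins that hold them latent were mostly higher with TGF-β1. Of 11 tested ligands and latency proteins 8 were higher with TGF-β1 and 1 in hypoxia (median -1.07). LTBP2, a latent TGF-β binding protein of microfibrils, stood at 16.1, 16.1 and 14.5 CPM in hypoxia and at 403, 405, 327, 333 and 327 with TGF-β1 (-4.55, SE 0.119), with the controls at 35.5. INHBA, the activin A subunit, stood at 8.82 against 112 CPM (-3.69) with the controls at 8.13. The TGFB1 message stood above the 115 CPM of the controls with both, at 439, 428 and 441 CPM in hypoxia and 682, 666, 634, 618 and 606 with TGF-β1 (-0.573, SE 0.0503, adjusted p = 2.724e-06). TGFB1 overlaps exons of HNRNPUL1 (314 CPM), so reads of that gene could enter its count. NRROS, a latency anchor, was the member higher in hypoxia, at 2.26, 2.17 and 1.92 CPM against 0.975 to 1.41.

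Receptors split. TGFBR1 stood at 45.3, 44.4 and 41.2 CPM in hypoxia and at 93.9, 92.8, 90.7, 91 and 89.7 with TGF-β1 (-1.08, SE 0.0413). Its partner TGFBR2 was higher in hypoxia, at 75.1 against 54.2 CPM (0.45). The co-receptor ENG (endoglin) stood at 0.796 to 0.991 CPM against 5.78 to 8.8 (-2.99), while the activin receptors ACVR1B and ACVR2B were higher in hypoxia (1.43 and 1.05). Over the 11 receptors, 3 were higher in hypoxia and 5 with TGF-β1, with a median of -0.00776 whose sign turned to 0.0359 without TGF-β1 replicate 5.

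The signal transducers split as well. SMAD3, the transducer of most matrix responses, was higher in hypoxia at 334 ± 12.9 CPM (SD, n = 3) against 114 ± 7.04 (SD, n = 5), with the controls at 202, a difference of 1.54. SMAD9, of the BMP branch, stood at 19.2, 17.4 and 16.5 CPM against 2.25 to 2.71 (2.80, SE 0.0834). SMAD4 and SMAD5 were not called. Among the inhibitors and feedback genes of the list both directions were found. PMEPA1, which sequesters SMADs, stood at 58.3, 62.1 and 63.4 CPM against 913, 904, 910, 910 and 895 (-3.90, SE 0.0439). SMAD7, the inhibitory SMAD, stood at 13.2, 14.3 and 13 CPM against 90.3, 84.1, 61, 61.3 and 59.3 (-2.42), and LDLRAD4, also a SMAD trap, at 0.0213 to 0.0702 against 0.668 to 0.785 (-3.94). On the side of hypoxia were the SMAD co-repressor TGIF2, at 63.9, 64.2 and 60 CPM against 23 to 24.1 (1.39), and ID2, a target of BMP signals that inhibits helix-loop-helix factors, at 28.9, 26 and 28 against 9.71 to 15.8 (1.15). In all, 11 of 19 SMADs and inhibitors were higher with TGF-β1 and 5 in hypoxia (median -0.412).

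Of 23 tested TGF-β targets 21 were higher with TGF-β1, against 35.8% of all genes, and 20 of them by 2-fold or more (median -2.35). TGFBI, a secreted matrix adaptor, stood at 583, 607 and 542 CPM against 6610, 6650, 7510, 7600 and 7650 (-3.66), with the controls at 253. For TGFBI hypoxia lay above the control level too, but far from the level with TGF-β1. FN1, fibronectin, stood at 4230, 3950 and 3500 CPM against 19600, 19800, 19400, 19900 and 19800 (-2.35), with the controls at 5004. CDKN2B, an inhibitor of the cell cycle kinases CDK4 and CDK6, stood at 8.06 against 96.1 CPM (-3.59). ACTA2, smooth muscle actin, was the member not called and was low in both groups, at 1.65 ± 0.236 CPM (SD, n = 3) and 1.66 ± 0.318 (SD, n = 5). CCN2, connective tissue growth factor, was called (-2.67, SE 0.595, adjusted p = 0.00516) from 7.54, 7.6 and 7.46 CPM in hypoxia and 82, 77, 26.6, 25.8 and 24.6 with TGF-β1. Its controls split as well. They stood at 101, 94.7 and 90.9 CPM in replicates 1, 2 and 5 and at 32 in replicates 3 and 4 (mean 70.2). CCN2 was thus not above its controls with TGF-β1 on average, and the difference held a low level in hypoxia. The difference was -3.44 against TGF-β1 replicates 1 and 2 and -1.78 against replicates 3, 4 and 5.

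**Figure D3:**
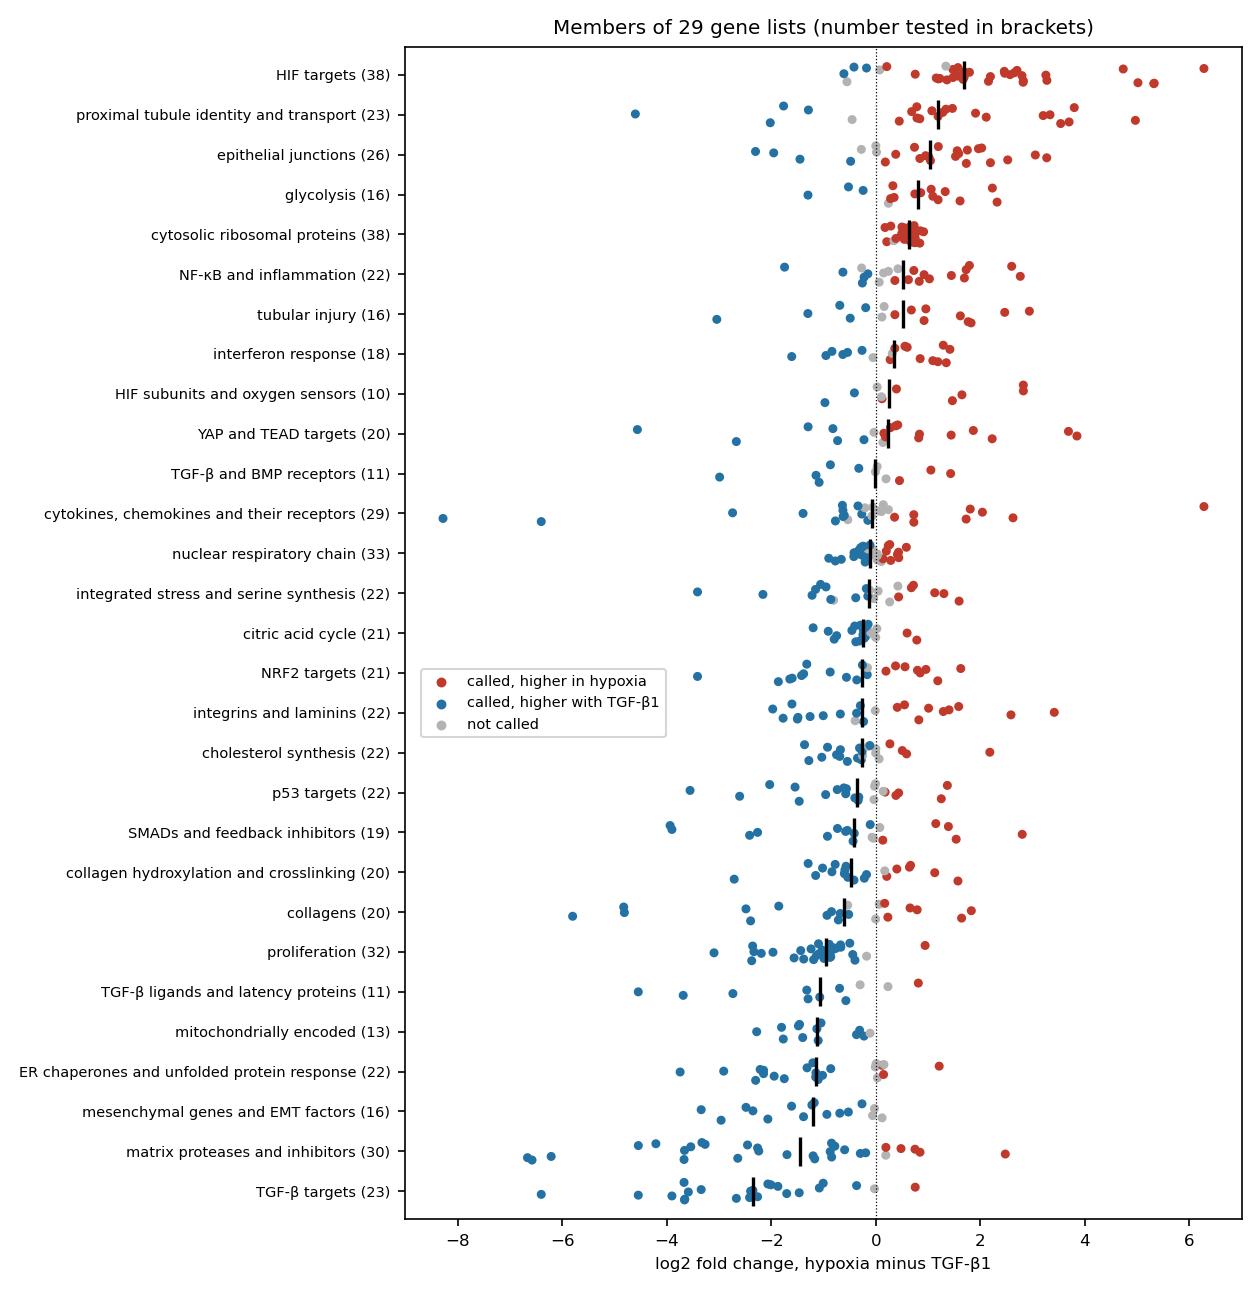
Log2 fold change (hypoxia minus TGF-β1) of every tested member of 29 gene lists, ordered by list median (black bars); red and blue points were called, grey points were not. The HIF targets lie at the top with a median of 1.69 and the TGF-β targets at the bottom with -2.35, while lists such as integrins and laminins spread to both sides.

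Collagens lay on both sides. Of 20 tested, 11 were higher with TGF-β1 and 6 in hypoxia (median -0.61). COL1A1, of fibrillar type I collagen, stood at 40.5, 44.5 and 43.7 CPM against 232, 224, 218, 220 and 224 (-2.40, SE 0.0461). COL5A1, which starts fibril assembly, stood at 0.117 to 0.299 CPM in hypoxia against 14.3, 13.9, 10.7, 10.2 and 10.6 (-5.80), with the controls at 1.57. COL8A1, a short-chain network collagen, was the largest in the other direction, at 93.4, 92.4 and 90.1 CPM against 28, 27.2, 24.5, 24.4 and 24.1 (1.83). The basement membrane pair split: COL4A1 stood at 1540, 1600 and 1420 CPM against 2780, 2740, 2310, 2270 and 2270 (-0.717, SE 0.091), while COL4A2, transcribed from the same promoter region in the opposite direction, stood at 2588 ± 115 CPM (SD, n = 3) and 2565 ± 202 (SD, n = 5) and was not called (95% interval of the difference -0.159 to 0.153).

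Among the enzymes that modify collagen, 13 of 20 were higher with TGF-β1 and 6 in hypoxia. P4HA1, a prolyl 4-hydroxylase subunit and HIF target, led towards hypoxia with 510, 486 and 555 CPM against 199, 202, 151, 153 and 154 (1.57, SE 0.121). P4HA3, of the same family, lay the other way, at 0.682 to 0.894 CPM against 4.29 to 5.83 (-2.71), with overlap of the exons of PPME1 (66.9 CPM). LOXL2, a lysyl oxidase-like crosslinking enzyme, stood at 1039 against 470.4 CPM (1.13), and TGM2, tissue transglutaminase, at 274 against 666 (-1.29). LOX, the founding lysyl oxidase, reached nearly the same level with either stimulus: 161, 150 and 151 CPM in hypoxia and 158, 155, 180, 183 and 187 with TGF-β1, against 11.2 ± 1.65 (SD, n = 5) in the controls. The LOX groups overlapped. Its difference of -0.178 (SE 0.0622, edgeR adjusted p = 0.0257) lost the call without hypoxia replicate 2 (adjusted p = 0.0913), hypoxia replicate 3 (0.0821), TGF-β1 replicate 3 (0.0906) or TGF-β1 replicate 4 (0.0916). PLOD2, which hydroxylates the telopeptide lysines that LOX acts on, stood at 619, 613 and 629 CPM against 561, 567, 505, 509 and 513 (0.21, SE 0.0528), with the controls at 295. Against TGF-β1 replicates 1 and 2 only, the differences of LOX and PLOD2 were -0.0706 (adjusted p = 0.192) and 0.0936 (0.0609).

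Matrix proteases and inhibitors stood on the side of TGF-β1, with 24 of 30 tested members higher there, 5 higher in hypoxia and a median of -1.45. The 3 largest differences were the metalloproteinases MMP10 (stromelysin-2), MMP1 and MMP13, and ADAMTS7 and ADAM19 were also among the larger ones above 5 CPM. MMP10 stood at 0.62, 0.33 and 0.421 CPM against 53.3, 58, 38.6, 40.2 and 41.5 (-6.67, SE 0.268). MMP24, a membrane-type enzyme, led towards hypoxia at 108, 111 and 105 CPM against 22.3, 21.5, 17.9, 16.8 and 17.1 (2.48), with the controls at 76.4. PLAU, urokinase, was also higher in hypoxia (268 against 147 CPM), but both were below the 571 CPM of the controls. Inhibitors of metalloproteinases differed little. TIMP1 stood at 141, 145 and 162 CPM against 203, 205, 164, 168 and 167, and TIMP2 at 582 against 658. The call of TIMP1 (-0.296, adjusted p = 0.0206) was lost without hypoxia replicate 1 (adjusted p = 0.0806) or hypoxia replicate 2 (0.0725).

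Receptors for matrix split by subunit. ITGB8, the integrin β8 that activates latent TGF-β, stood at 371, 371 and 329 CPM in hypoxia, near the 317 of the controls, and at 31, 31.5, 35.7, 33.6 and 34 with TGF-β1 (3.42, SE 0.0537). ITGB4, of hemidesmosomes, stood at 116 against 19.1 CPM (2.59). The fibronectin and vitronectin receptors lay the other way: ITGA5 (89.9 against 252 CPM), ITGAV (814 against 2262) and ITGB1 (914 against 2163) had differences of -1.50, -1.49 and -1.26. LAMA3 and LAMB2 were higher in hypoxia (1.40 and 1.59). Over 22 integrins and laminins 9 were higher in hypoxia and 11 with TGF-β1.

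Mesenchymal genes were on the side of TGF-β1 and junction genes on that of hypoxia. Of 16 mesenchymal genes and EMT factors 13 were higher with TGF-β1, none was higher in hypoxia and the median was -1.20. This list shares members with the TGF-β targets above, FN1 among them, so it is no separate support. TAGLN (transgelin) stood at 1.53, 2.2 and 1.74 CPM against 20.9, 18.5, 17.5, 17.4 and 17.3 (-3.34), with exon overlap with PCSK7 (41.8 CPM). SNAI1, a repressor of E-cadherin, stood at 9.35 against 72.1 CPM (-2.96), with the controls at 6.65. VIM, vimentin, was above the 414 CPM of the controls with both, at 1140, 1120 and 1080 CPM in hypoxia and 1950, 1960, 1640, 1670 and 1660 with TGF-β1 (-0.69, SE 0.0773). ZEB2 and TWIST1 were not called, at 6.7 against 6.93 and 10.1 against 9.2 CPM.

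Of 26 tested junction genes 19 were higher in hypoxia and 4 with TGF-β1 (median 1.03). TJP3, a tight junction scaffold, stood at 34.3, 34.6 and 35.1 CPM against 4.91, 4.52, 3.17, 2.88 and 2.26 (3.27, SE 0.231), and CLDN3 and OCLN of tight junctions at 14.8 against 1.75 and 19.8 against 3.4. The control levels of these 3 genes were 23.9, 17.7 and 25.6 CPM, closer to hypoxia than to TGF-β1. TJP3 in hypoxia lay above all its controls (21 to 25.9 CPM), and CLDN3 and OCLN lay below theirs on average. CDH1, E-cadherin, stood at 13.9, 13.2 and 13.1 CPM against 4.54, 3.94, 3.96, 3.84 and 3.69 (1.73, SE 0.0804), with the controls above both at 29.4. Desmosomal genes split. DSC2, a desmosomal cadherin, stood at 53.7, 50.3 and 46.9 CPM against 245, 241, 242, 245 and 255 (-2.30) and DSP, desmoplakin, at 426 against 1632 (-1.95). The plakophilins PKP2 (25.1, 24.8 and 27.2 CPM against 8.01 to 9.66, 1.56) and PKP3 (15.2, 15.7 and 18.1 against 4.34 to 5.5, 1.75) were higher in hypoxia, and DSG2 was not called at 300 to 314 against 292 to 307. DSC2, DSP, TJP1 and CDH6 were the 4 higher with TGF-β1.

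**Figure D4:**
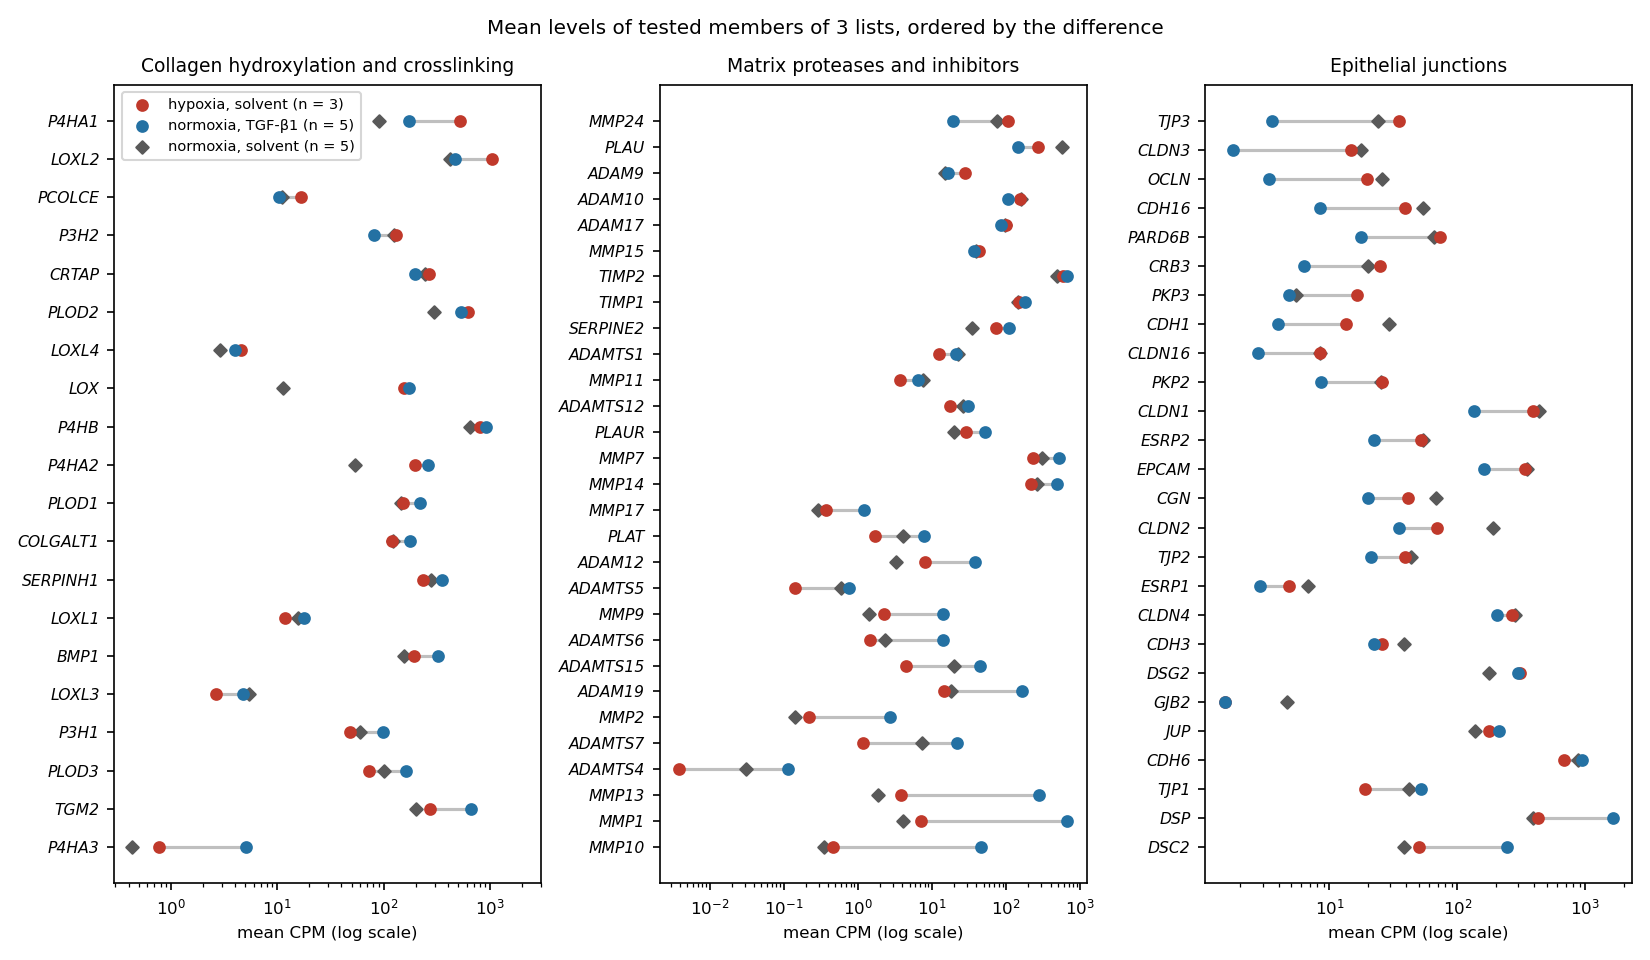
Mean CPM (log scale) in hypoxia, with TGF-β1 and in normoxic solvent controls for tested members of 3 lists, ordered by the difference. LOX and PLOD2 show both stimuli together and apart from the control diamond, MMP1 and MMP13 show TGF-β1 alone far to the right, and TJP3, CLDN3 and OCLN show TGF-β1 alone to the left.

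Some genes reached like levels with both stimuli. Of all genes tested, 4885 (23.9%) had a 95% interval of the difference inside 0.5 on the log2 scale on either side of 0, as had 28 of 183 tested members (15.3%) of the 8 lists of HIF targets, TGF-β targets, collagens, collagen enzymes, proteases, integrins, mesenchymal genes and cytokines. Several of these lay well away from the controls with either stimulus. CSF1R, the receptor of colony-stimulating factor 1, stood at 60.3 ± 4.98 CPM (SD, n = 3) and 55.3 ± 2.61 (SD, n = 5) against 13.8 ± 0.934 (SD, n = 5). COL27A1 stood at 252 and 221 CPM against 109, LAMB3 at 262.5 and 319 against 91, and OSMR, the oncostatin M receptor, at 312 and 325 against 144. TNFSF15 lay the other way, at 1.32 and 1.18 CPM against 4.72. The distance from the controls was not tested here, and these members were picked from the 28 after their values were seen.

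Proximal tubule genes were mostly lower with TGF-β1. Of 23 tested, 18 were higher in hypoxia and 4 with TGF-β1 (median 1.19). SLC34A1 (above), LRP2 and SLC3A1 at low levels, AMN (16.9 against 1.28 CPM, an anchor of the endocytic receptor cubilin), PAX2 (17 against 1.2, a renal transcription factor) and SLC2A2 (14 against 1.5, the basolateral glucose transporter) had differences over 3. AQP1, the water channel, was the largest in the other direction at 0.0406, 0.0426 and 0.105 CPM against 1.5, 1.94, 1.61, 1.35 and 1.19 (-4.60, SE 0.339). Of 16 injury genes, 9 were higher in hypoxia and 5 with TGF-β1. HAVCR1, which encodes the injury marker KIM-1, stood at 481 against 135 CPM, with the controls at 455, and CD24 at 734 against 131. KRT7, a simple-epithelium keratin, stood at 1.25 to 1.46 CPM against 9.5 to 12.1 (-3.04), and CD44, a hyaluronan receptor, at 161 against 393 with the controls at 66.6. PROM1 was higher in hypoxia (2.94, SE 0.581) at under 0.4 CPM in each library.

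The folding machinery of the endoplasmic reticulum was lower in hypoxia. Of 22 chaperones and unfolded protein response genes 15 were higher with TGF-β1, 14 of them by 2-fold or more, and 3 in hypoxia (median -1.15). SDF2L1, a component of the chaperone complex, stood at 1.91, 1.96 and 2.06 CPM against 27.5, 29.1, 25.8, 24.8 and 23.9 (-3.75, SE 0.092), with the controls between at 9.98. The main chaperone HSPA5 (BiP) stood at 300.4 against 1463 CPM with the controls at 650.2, and HYOU1 and PDIA4 had the same order. ERN1, which encodes the stress sensor IRE1, was the largest in the other direction at 25.8, 25.8 and 18.6 CPM against 10.2, 10.2, 10.3, 10.2 and 9.12 (1.21). In the integrated stress response, 6 of 22 genes were higher in hypoxia and 10 with TGF-β1. DDIT3, the transcription factor CHOP, stood at 49.4, 49.9 and 63 CPM against 15.5 to 20.9 (1.59, with exon overlap with MARS1 at 117 CPM), and SLC7A11, the cystine importer, at 1.7, 2.05 and 1.73 against 18.5, 18, 18.7, 19.3 and 21.8 (-3.41). NRF2 targets split as 8 and 12 of 21, and cholesterol synthesis as 4 and 13 of 22.

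Cell cycle genes were nearly all higher with TGF-β1. Of 32 proliferation genes 30 were higher there (median -0.953). CCNE2, a G1/S cyclin, stood at 6.06, 5.8 and 6.22 CPM against 45.7, 46.2, 53.1, 54.5 and 55.6 (-3.10, SE 0.0801), with the controls at 22.4, and the replication clamp PCNA at 68.4 against 351 with the controls at 243. The mitotic genes PLK1 and CCNB2 had differences of -0.67 and -0.44. The licensing factor CDT1 was the member higher in hypoxia, at 110, 109 and 116 CPM against 54.4 to 60.9 (0.943). Of 22 p53 targets, 13 were higher with TGF-β1 and 5 in hypoxia. TIGAR stood at 1.73, 1.83 and 0.843 CPM against 14.3 to 19.4 (-3.56), and CCNG1 at 233, 228 and 241 against 87.7 to 92.7 (1.37). Cytosolic ribosomal protein genes made the most uniform list: 37 of 38 were higher in hypoxia, none by 2-fold, with differences from 0.176 to 0.914 and a median of 0.63. RPL10A stood at 739, 759 and 857 CPM against 401 to 423. Many ribosomal protein genes have processed pseudogenes to which reads could be assigned.

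Inflammatory genes went both ways. Of 29 cytokines, chemokines and receptors 8 were higher in hypoxia and 12 with TGF-β1 (median -0.0735). IL6R (61.4 against 9.83 CPM), CSF1 (135 against 32.5) and CX3CL1 (61.1 against 17.2) were on the side of hypoxia, and LIF (76.3 against 129) and IL7R and IL11 on that of TGF-β1. Of 22 NF-κB genes, 12 were higher in hypoxia and 5 with TGF-β1 (median 0.524). BIRC3, an inhibitor of apoptosis, stood at 136, 137 and 120 CPM against 20.6, 21, 17.4, 18.2 and 18.1 (2.77, SE 0.0745), and SOD2, mitochondrial superoxide dismutase, at 809 against 132 CPM. PTGS2, under 0.2 CPM throughout, had a difference of -1.75 (adjusted p = 0.0148) that became -3.03 without hypoxia replicate 1 and lost its call without hypoxia replicate 2 (adjusted p = 0.0535) or 3 (0.0658). Of 18 interferon response genes 10 were higher in hypoxia and 6 with TGF-β1. OAS3, an antiviral oligoadenylate synthetase, stood at 21.6 to 23.6 CPM against 67.2 to 72 (-1.61). Among 20 YAP and TEAD targets 12 were higher in hypoxia and 6 with TGF-β1, with F3, tissue factor, at 396, 391 and 405 CPM against 23 to 31.9 (3.85) and NT5E, the ectonucleotidase CD73, at 2.91 to 3.36 against 98.1, 100, 55, 57.8 and 58.5 (-4.56).

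Of the markers of other cell types, some were near 0 and others were not. The defining endothelial markers PECAM1, CDH5, VWF, KDR, TEK and CLDN5, the immune markers PTPRC, CD3E and LYZ, and the podocyte markers NPHS1 and WT1 were below 0.1 CPM in all 3 groups, as were PDGFRA, COL3A1, THY1 and POSTN of fibroblasts. Of 9 fibroblast markers 5 were tested, of which COL1A1, PDGFRB (1.29 against 10.6 CPM) and FAP were higher with TGF-β1 and LUM in hypoxia. Their summed level was 124 to 132 CPM in hypoxia, 287 to 300 with TGF-β1 and 110 to 134 in the controls. COL1A1 alone stood at 42.9, 223 and 36.6 CPM on average in that order. Of 9 immune markers 5 were tested, of which 3 were higher in hypoxia and none with TGF-β1, with a summed level of 424 to 442 CPM in hypoxia, 273 to 306 with TGF-β1 and 386 to 412 in the controls. CD68, a lysosomal protein known from macrophages, stood at 207, 193 and 198 CPM against 90.6 to 106 (1.02). CD74, the invariant chain of class II antigen presentation, stood at 171, 171 and 175 CPM against 128 to 143 (0.32), with the controls above both at 263 on average. The third was ITGAM, at 1.36 against 0.72 CPM (0.90). Of 9 endothelial markers 3 were tested: EGFL7 was higher in hypoxia at 41.7, 46.9 and 50.9 CPM against 28.3 to 38.8 (0.50), and ERG and TIE1 were higher with TGF-β1 at under 3 CPM on average. Which cells these transcripts came from, and their part in the differences above, was not tested. Of 6 podocyte markers 3 were tested: 1 was higher in hypoxia, 1 with TGF-β1 (-2.42) and 1 was not called (median 0.0567). The member higher in hypoxia was SYNPO, synaptopodin, at 459 CPM in hypoxia, 34.2 with TGF-β1 and 73.1 in the controls (3.73). Of 9 distal nephron markers 3 were tested, of which 2 were higher in hypoxia and none with TGF-β1. Among them SCNN1A, the epithelial sodium channel α subunit, stood at 27.9 CPM in hypoxia, 3.43 with TGF-β1 and 34.9 in the controls.

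The same stimuli compared in the presence of BAY gave a like picture over all genes, though not for every list, in libraries the first comparison did not use. Of 20424 genes tested 15049 (73.7%) were called, 7314 (35.8%) higher in hypoxia and 7735 (37.9%) higher with TGF-β1, and 31.1% differed by 2-fold or more (15.5% and 15.6% in the same order) and 4.62% by 8-fold or more. Of the 5480 genes called at 2-fold or more without BAY and tested in both, 5045 (92.1%) were called in the same direction with BAY and 17 in the opposite. Across the 19901 genes tested in both, the differences had a Pearson correlation of 0.897 and a Spearman correlation of 0.902, as a description over genes that are not independent. HIF targets (33 higher in hypoxia, 4 with TGF-β1) and TGF-β targets (1 and 21) kept their direction. NF-κB genes went from 12 and 5 to 10 and 9 (median 0.0577), and integrated stress genes from 6 and 10 to 11 and 8 (0.27). The median of integrins and laminins went from -0.265 to 0.0222. CA9 stood at 7.33 CPM in hypoxia with BAY and 0.157 with TGF-β1 and BAY (5.51), and MMP1 at 12.2 and 1282 (-6.74). LOX was again near equal, at 182 and 190 CPM (-0.0834, adjusted p = 0.265). TGFB1 stood at 560 and 606 CPM and was not called (-0.134, adjusted p = 0.0718). The call of CCN2 there (-1.92, adjusted p = 0.0189) did not hold when replicate 1 (0.0559) or 3 (0.063) of hypoxia with BAY was left out.

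**Figure D5:**
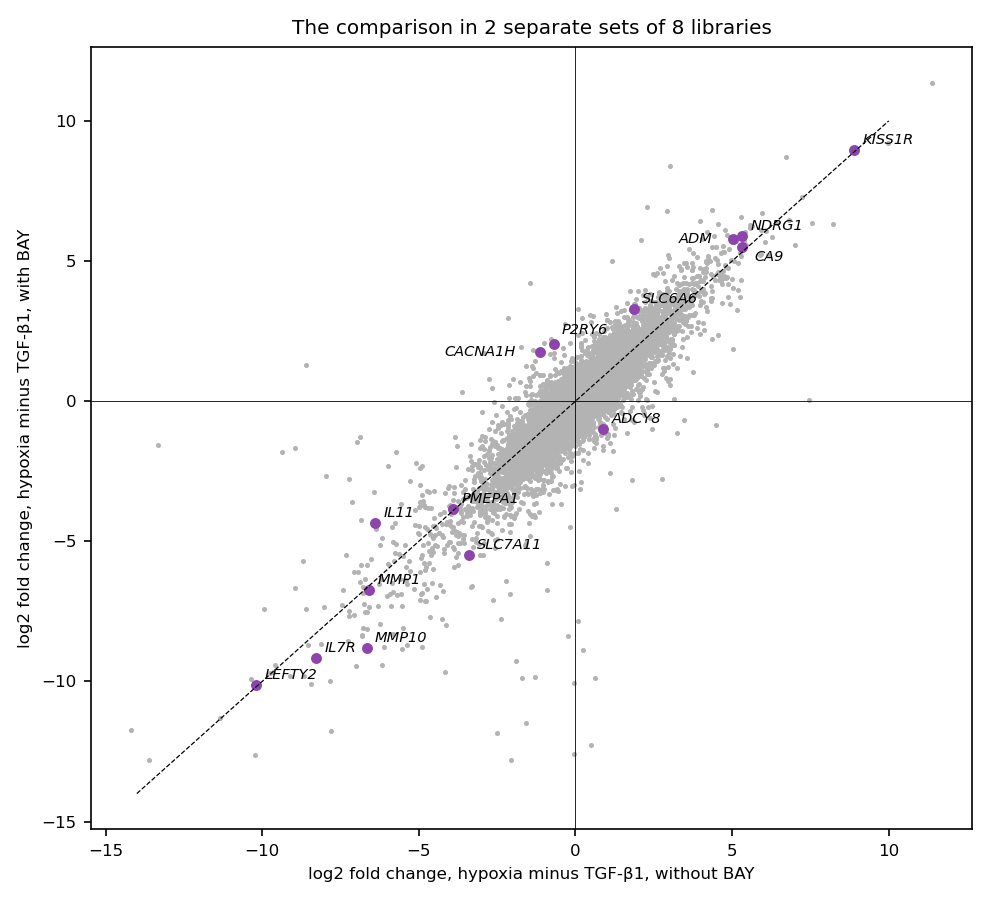
Log2 fold change (hypoxia minus TGF-β1) without BAY on the horizontal axis and with BAY on the vertical axis for 19901 genes (grey), with named genes in purple and the line of equality dashed. Most points follow the line (Pearson correlation 0.897), while IL11 lies above it at -6.40 and -4.34 and CACNA1H and P2RY6 lie on opposite sides of 0 on the axes.

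The difference between the comparisons was tested as the interaction of stimulus and BAY over 16 libraries. Of 21417 genes tested 4421 (20.6%) were called, 2459 (11.5%) more positive without BAY and 1962 (9.16%) less positive, and 2.81% differed by 2-fold or more, 1.71% more positive and 1.10% less. CACNA1H, a T-type calcium channel, stood at 7.79, 7.32 and 7.6 CPM in hypoxia and 16.1 to 17 with TGF-β1 (-1.13), but at 113 CPM in hypoxia with BAY and 32.9 with TGF-β1 and BAY (1.76), an interaction of -2.90 (SE 0.0853, adjusted p = 4.937e-12). P2RY6, a receptor for UDP, likewise went from -0.70 to 2.03 (interaction -2.73). ADCY8, an adenylate cyclase, stood at 25.6 against 13.8 CPM without BAY and at 16.0 against 31.7 with it (interaction 1.88). SLC6A6, the taurine transporter, and LITAF kept their direction with larger differences with BAY (1.86 to 3.28 and 0.41 to 1.70). SLC4A7, a bicarbonate transporter, DKK3, a Wnt-pathway glycoprotein, and the death receptor FAS became more strongly higher with TGF-β1 (-2.10 to -3.69, -0.175 to -1.29 and -0.33 to -1.63).

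Among genes that separated the stimuli strongly, IL11 did so less with BAY. It stood at 3.70 CPM in hypoxia and 78.7 in hypoxia with BAY, and at 310.2 with TGF-β1 and 1571 with TGF-β1 and BAY, so that the difference went from -6.40 to -4.34 (interaction -2.07, adjusted p = 5.734e-10). MMP10, SLC7A11 and NT5E separated the stimuli more with BAY, with differences of -8.82, -5.50 and -6.47 and interactions of 2.15, 2.08 and 1.91. CDH1 separated them less (0.947 with BAY, interaction 0.776). PMEPA1, CA9, NDRG1, MMP1 and IL7R were not called for an interaction, the largest of the 5 being 0.88 for IL7R (adjusted p = 0.102). By list, the interaction was called in 12 of 22 p53 targets, all more positive without BAY, in 11 of 22 NF-κB genes more positive and 1 less, and in 1 of 32 proliferation genes more positive and 9 less, beside 11.5% and 9.16% of all genes. These lists were picked from the 29 after their values were seen. Others were also uneven, such as the cytokine list (11 more positive and 4 less) and the endoplasmic reticulum list (1 and 7).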

How the data were processed

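Poly(A) RNA of 24 HK-2 libraries was sequenced, and the deposited table holds estimated counts per gene, made by the authors with Salmon on GRCh38 per the submitters' processing notes, which also name DESeq2. For versions and the transcript annotation, nothing is stated in the labels or notes used here. Of 65180 gene identifiers 6261 had no symbol and held 4.361% of counts. Counts were rounded to whole numbers, since 37.98% of values above 0 were not whole (tolerance 0.01).

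Groups came from the sample labels. The 3 hypoxia and 5 TGF-β1 libraries were fitted alone in edgeR 4.0.16 (R 4.3.3) with TMM scaling, filterByExpr and the robust quasi-likelihood test, and so were the 8 libraries with BAY. The interaction was fitted on the 16 together. SEs are the log2 fold change divided by the root of F and are approximate. CPM were TMM-scaled over all 24 libraries, which held 78862372 to 105571090 counts each. The 26 replicate pairs compared all differed beyond sampling noise. Intervals cover the spread between libraries. On simulated counts for the first comparison (19999 genes) the test recovered 50% of 1.5-fold, 68.3% of 2-fold and 89.2% of 4-fold changes, and 7.64% of calls were false. For the comparison with BAY (20008 genes) these were 54.5%, 65.7%, 80.3% and 11.9%, and for the interaction (20857 genes) 43.9%, 51.6%, 80.3% and 5.74%. The simulations changed few genes, 64, 63 and 65 at these folds for the first comparison, while 72.2% of genes were called in the data. Recovery and the share of false calls depend on how many genes change, so these rates do not carry over to the calls above. Alternatives were DESeq2 1.42.0, its size factors, limma 3.58.1 (voom), no filter, a 1.5-fold threshold test, a replicate block, 1 fit over all libraries, leaving out each replicate and, chosen after seeing the data, each subset of TGF-β1 libraries alone and the position of the control level without each control library.

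Genes with full values are those of a core list, the 12 largest called differences each way (at least 5 CPM in either group, no overlap), the extreme called members of each of 29 lists, and the 4 smallest interaction p-values each way. Further members given as examples were picked after their values were seen, and some genes are not reported here. The comparison, the genes and the lists were chosen with earlier results of these data known. Gene positions are from GENCODE release 29 and promoters from RefSeq.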

Additional observations from a re-analysis of the deposited data

Results flagged for a closer look

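The 5 TGF-β1 libraries were checked for each of the 99 named genes, and for 3 genes 1 library stood apart from the other 4. The usual chance rate of about 1 in 20 is no measure here. The genes share the same libraries, which fell into 2 subsets. CXCR4 stood at 0.0574 CPM (5 counts) in TGF-β1 replicate 3 and at 0.0104 to 0.0232 (1 or 2 counts each) in the others. ERN1 stood at 9.12 CPM in replicate 5 and at 10.2 to 10.3 in the others. STARD4, a cholesterol carrier, stood at 132 CPM in replicate 2 and at 120 to 122 in the others.

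For 38 of the 99 named genes the difference between hypoxia and TGF-β1 was itself different without and with BAY, by edgeR's test of the interaction. Of these, 8 were named for their interaction, so their calls were fixed by that choice. Of the other 91 genes 30 were called (33%), beside 20.6% of all genes, but most of the 91 were chosen by their difference without BAY, which is part of the interaction, so nothing is read from that share. The values are log2 differences, those without BAY minus those with BAY. Among the genes named for their interaction they were 1.58 for SLC4A7, 1.88 for ADCY8, 1.1 for DKK3, 1.29 for FAS, -2.9 for CACNA1H, -2.73 for P2RY6, -1.43 for SLC6A6 and -1.31 for LITAF. In genes of HIF and metabolism they were -0.475 for SLC2A1, 0.616 for BHLHE41, -0.62 for HK2, -0.321 for FH and -0.172 for COX7C. In genes of the TGF-β pathway they were -0.447 for TGFB1, 0.584 for TGFBR1, 0.599 for NRROS, -0.233 for ACVR1B, 0.314 for TGFBI and -0.424 for FN1. In matrix and adhesion genes they were 2.15 for MMP10, -0.549 for MMP24, -0.493 for COL8A1, -0.565 for P4HA3, 0.325 for ITGB8, 0.776 for CDH1, 0.743 for DSC2 and -1.22 for TAGLN. IL11 stood at -2.07 and NT5E at 1.91. In stress, sterol and cell cycle genes they were -1.12 for ERN1, 0.588 for SDF2L1, 2.08 for SLC7A11, -0.634 for TM7SF2, 0.621 for STARD4, -0.512 for CDT1, -0.544 for CCNE2, 1.22 for TIGAR and 0.258 for RPL10A. The call was lost under at least 1 other setting for BHLHE41, CCNE2, COX7C, HK2, ITGB8, MMP24, NRROS, P4HA3, SLC2A1, TGFBI and TIGAR, in 104 of 760 values over all 38 genes.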

How the results depend on the processing

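The count of 14749 genes called between hypoxia and TGF-β1 became 7292 when the test asked for a difference over 1.5-fold, with 3796 higher in hypoxia and 3496 higher with TGF-β1, a stricter question by construction. Under the other settings it stayed within 1.5 times, up to 15476 with all libraries in 1 fit (DESeq2 14801, voom 14930), and from 13894 to 14625 without 1 replicate. With BAY the count ranged from 14262 to 14880 without 1 replicate, and that of the interaction from 3496 to 4351. Hypoxia and TGF-β1 libraries share replicate numbers. The deviations of same-numbered libraries correlated at -0.055, 0.019 and 0.062, and 1 of the 3 numbers matched best with itself. No pairing by number was seen, but 3 correlations cannot exclude it. With the replicate block the counts were 13555, 14180 with BAY and 3735 for the interaction. Of 1780 values of the 99 named genes under other settings, 29 lost the call, in 15 genes. The block took the call from LOX (-0.133, adjusted p = 0.118), PLOD2 (0.151, 0.0511) and BHLHE40 (0.587, 0.0638). Of the 34 list medians, 23 moved by more than their spread between libraries while keeping their sign, in 59 of 611 values under other settings. The median of the receptor list turned to 0.0394 with the block and ranged from -0.0954 to 0.0359 without 1 replicate, that of the podocyte markers to -0.273 with TGF-β1 replicates 1 and 2 only, and LOX with BAY to 0.014 with TGF-β1 and BAY replicates 3, 4 and 5 only; the cause was not tested. PLPP4 and PTGS2 rest on few counts in hypoxia.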
